A study of Danio rerio with 6 samples.

Results

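Enteric neurons and their neural crest lineage were followed through 10 genes, picked by symbol from the 15419 gene symbols of the deposited counts. They comprise *phox2bb*, *hand2*, *ret*, *elavl3*, *elavl4*, *nos1*, *vipb*, *chata*, *sox10* and *sncga*, and all 10 symbols were present in the table. The counts come from bulk RNA-seq of guts dissected from 5-dpf (days post-fertilization) zebrafish larvae that had been reared germ-free (GF), with eggs surface-sterilized by bleach and hypochlorite and larvae kept in sterile medium with ampicillin, kanamycin, ceftazidime and chloramphenicol. WT GF larvae were compared with il26-/- GF larvae (il26KO in the labels), from a line whose cytokine gene *il26* was disrupted by CRISPR/Cas9, in 3 libraries per group, each made from 10 to 15 pooled guts. The wild-type line of the study is AB, and the parents of both groups were clutchmates kept as separate WT and il26-/- tanks. The labels call the libraries biological replicates but do not say which clutches the pools came from. The p-values therefore set the group difference against variation between pools. Effects of parental tank or clutch cannot be told apart from genotype.

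The enteric nervous system is built by vagal neural crest cells that enter the gut, migrate along it and form neurons and glia in its wall. The receptor tyrosine kinase Ret, stimulated by glial cell line-derived neurotrophic factor (GDNF), keeps these cells alive and moving, and transcription factors such as Hand2 and Sox10 direct their fate. In the zebrafish larva the resulting neurons drive peristalsis, with nitric oxide and vasoactive intestinal peptide (VIP) as inhibitory signals and acetylcholine as an excitatory one.

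Total counts per library ranged from 7528412 to 38143258, and both extremes were il26-/- GF libraries, replicates 1 and 2. No library of either group held a count for *il26* itself (0 in each), so this gene does not check the genotype labels. Levels are given as CPM (reads per 1000000 reads on the genes tested, after TMM scaling), and 3 counts correspond to between 0.0765 and 0.369 CPM depending on the library. All 13 gut epithelial markers found in the table passed the filter on low counts, and their summed level was between 23165 and 28111 CPM. In whole guts, fewer neurons and less RNA per neuron cannot be told apart.

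Germ-free guts of both genotypes gave counts for 9 of the 10 genes, and none of the 9 passed the test of il26-/- GF against WT GF after adjustment over all 11062 genes tested (adjusted p-value of at least 0.925 for each, edgeR's quasi-likelihood test). Before adjustment, 1 of the 9 genes tested, *phox2bb*, had a p-value under 0.05, where 5.32% of all genes tested did, 2.27% lower and 3.06% higher in il26-/- GF. At an adjusted p-value under 0.05, 0 of the 9 passed, against 0.00904% of all genes tested, and DESeq2 and limma-voom also called 0. The fitted log2 fold change was negative for 8 of the 9, with a median of -0.12, and for 7 of the 9 (median -0.027) when libraries were scaled by total counts alone. Over all genes tested it was negative for 50.4%, with a median of -0.0011, both after TMM scaling. With total counts alone the median over all genes was 0.084. All 9 genes were measured in the same 6 pools, so their shared sign is not 9 separate observations. The tenth gene, *sncga*, had 0 counts in every library.

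**Figure D1:**
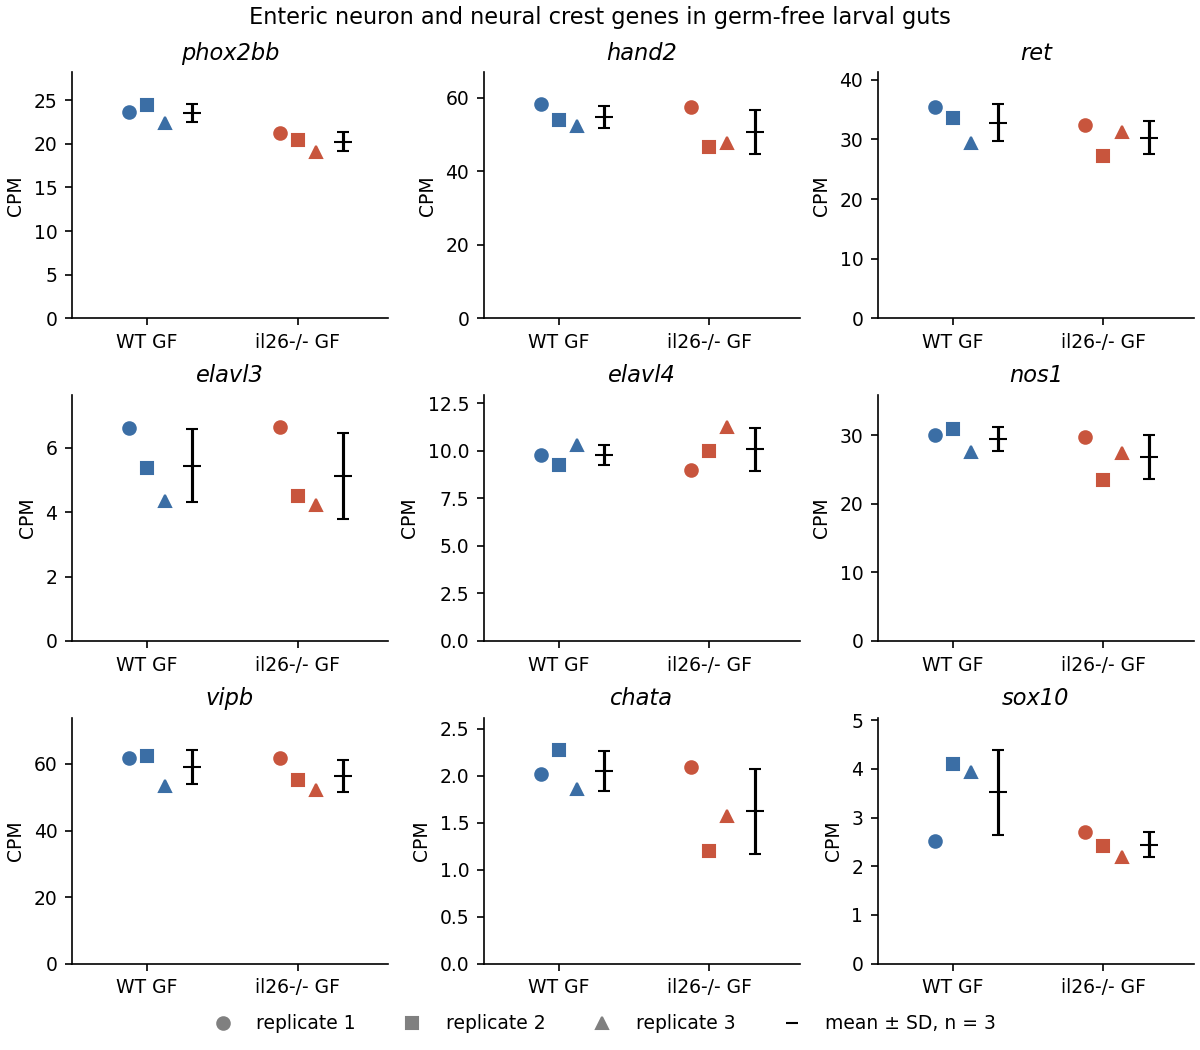
Level of each of the 9 genes with counts, in CPM on a linear axis from 0, in every WT GF (blue) and il26-/- GF (red) library, with symbols for the replicate numbers and the mean ± SD of 3 libraries in black. The groups are apart for *phox2bb*, with 22.4 to 24.5 CPM against 19.0 to 21.3 CPM, and overlap for the other 8.

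The transcription factor gene *phox2bb*, whose product specifies enteric neurons, had 478, 483 and 687 counts in replicates 1, 2 and 3 of WT GF, against 173, 801 and 303 counts in replicates 1, 2 and 3 of il26-/- GF. This is 23.6, 24.5 and 22.4 CPM in WT GF against 21.3, 20.4 and 19.0 CPM in il26-/- GF. Every il26-/- GF library was below every WT GF library, with 1.13 CPM between the nearest libraries. Groups failed to overlap for 1 of the 9 genes, beside 9.64% of all genes tested, 4.83% lower and 4.81% higher in il26-/- GF. Mean levels were 23.5 ± 1.03 CPM in WT GF and 20.3 ± 1.13 CPM in il26-/- GF (SD, n = 3 each). The log2 fold change was -0.21 (standard error 0.091, 95% interval -0.43 to -0.0021, unadjusted p = 0.0483, adjusted p = 0.925, edgeR). The unadjusted p-value rose to 0.118 without WT GF replicate 1, to 0.160 without WT GF replicate 2, and to between 0.0520 and 0.134 when an il26-/- GF library was left out. It was 0.0504 with DESeq2's size factors and 0.323 when libraries were scaled by total counts alone. In 4 of the 14 alternatives it was under 0.05, among them 0.0466 without WT GF replicate 3 (edgeR) and 0.0367 with limma-voom. The log2 fold change was negative in all 14, and the adjusted p-value was at least 0.482 in each.

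Its paralog *phox2a*, which acts in the same autonomic lineage, had 33.6, 27.7 and 31.1 CPM in WT GF and 28.9, 25.3 and 25.5 CPM in il26-/- GF. These groups overlapped, and the log2 fold change was -0.22 (standard error 0.11, unadjusted p = 0.0780, edgeR). The duplicate *phox2ba* had a total of 1 count over the 6 libraries. Among the phox2 genes, reads therefore fell on *phox2bb* and *phox2a*.

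Of *hand2*, a bHLH factor of enteric neuron differentiation that gut mesenchyme also expresses, there were 58.2, 53.9 and 52.2 CPM in WT GF and 57.4, 46.6 and 47.6 CPM in il26-/- GF. The groups overlapped because il26-/- GF replicate 1 lay among the WT GF libraries. The log2 fold change of -0.12 had a 95% interval of -0.37 to 0.13 (unadjusted p = 0.307, edgeR), which spans folds from 0.772 to 1.1.

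The receptor gene *ret* had 35.4, 33.6 and 29.4 CPM in WT GF and 32.3, 27.2 and 31.3 CPM in il26-/- GF. WT GF replicate 3 was lower than 2 of the 3 il26-/- GF libraries, and the log2 fold change was -0.12 (95% interval -0.38 to 0.14, unadjusted p = 0.316, edgeR). *gfra1a*, the co-receptor that presents GDNF to Ret, was at 7.06, 7.75 and 6.78 CPM in WT GF and at 7.99, 7.25 and 7.79 CPM in il26-/- GF. The ligand gene *gdnfa* was at 6.17, 5.77 and 6.52 CPM in WT GF and at 5.90, 5.10 and 6.03 CPM in il26-/- GF. Receptor, co-receptor and ligand were thus all detected in every library, with overlapping groups. Of the 15 genes listed for GDNF family and endothelin signalling, 9 were in the table and 6 passed the filter. An unadjusted p-value under 0.05 was reached by 0 of the 6 in edgeR, beside 5.32% of all genes tested. Besides *gfra1a* (log2 fold change 0.089) and *gdnfa* (-0.13), the 6 were the receptor genes *gfra2a* (0.054) and *gfra3* (0.63), the endothelin-converting enzyme gene *ece1* (-0.083) and the endothelin receptor gene *ednrba* (-1.0). The low-count genes *gfra1b* and *gfra4a* reached at most 10 and 4 counts in a library, and the endothelin 3 gene *edn3b* had 0.

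Pan-neuronal genes of the Hu family, *elavl3* (HuC) and *elavl4* (HuD), encode RNA-binding proteins used as general neuronal markers. *elavl3* had 6.61, 5.37 and 4.34 CPM in WT GF and 6.64, 4.52 and 4.21 CPM in il26-/- GF. *elavl4* had 9.77, 9.27 and 10.3 CPM in WT GF and 8.98, 10.00 and 11.3 CPM in il26-/- GF. Their libraries stood in nearly opposite order, since il26-/- GF replicate 1 was the highest for *elavl3* and the lowest for *elavl4*, and il26-/- GF replicate 3 the reverse. Neither gene differed between the groups beyond this spread. The log2 fold change was -0.12 (95% interval -0.66 to 0.42, unadjusted p = 0.629, edgeR) for *elavl3* and 0.048 (95% interval -0.24 to 0.34, unadjusted p = 0.706, edgeR) for *elavl4*, the only gene of the 9 with a positive value. *elavl3* became positive without WT GF replicate 1 (0.053) and without il26-/- GF replicate 3 (0.0028), and *elavl4* became negative without il26-/- GF replicate 3 (-0.027).

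The neuronal nitric oxide synthase gene *nos1*, a marker of inhibitory motor neurons, had 30.1, 30.9 and 27.6 CPM in WT GF and 29.8, 23.5 and 27.4 CPM in il26-/- GF. The lowest value came from il26-/- GF replicate 2, and the log2 fold change was -0.14 (95% interval -0.40 to 0.12, unadjusted p = 0.247, edgeR). The VIP precursor gene *vipb* had 61.9, 62.3 and 53.2 CPM in WT GF and 61.7, 55.1 and 52.3 CPM in il26-/- GF. It was the steadiest of the 9, with the highest library only 1.19 times the lowest. Its log2 fold change of -0.071 (95% interval -0.32 to 0.18, unadjusted p = 0.528, edgeR) leaves folds between 0.801 and 1.13. The paralog *vip* had 6.46 to 11 CPM in WT GF and 6.98 to 9.41 CPM in il26-/- GF, with a log2 fold change of -0.11 (unadjusted p = 0.638, edgeR).

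Choline acetyltransferase, the enzyme that makes acetylcholine, is encoded by *chata*, which had 41, 45 and 57 counts in WT GF, against 17, 47 and 25 counts in il26-/- GF. Scaled, these were 2.02, 2.28 and 1.86 CPM in WT GF and 2.09, 1.2 and 1.57 CPM in il26-/- GF. In il26-/- GF, replicates 2 and 3 were below all WT GF libraries and replicate 1, the shallowest library, was within them. The log2 fold change was -0.42 (95% interval -1.02 to 0.18, unadjusted p = 0.147, edgeR), so that folds from 0.494 to 1.14 are within the interval. The vesicular acetylcholine transporter gene *slc18a3a*, a further marker of cholinergic neurons, had a log2 fold change of -0.051 (unadjusted p = 0.796, edgeR). The paralog *chatb* had 3 counts in all.

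*sox10*, an SRY-box factor of neural crest that enteric glia, progenitors and pigment cell precursors keep, had 51, 81 and 121 counts in WT GF, against 22, 95 and 35 counts in il26-/- GF. These correspond to 2.52, 4.1 and 3.95 CPM in WT GF and 2.71, 2.42 and 2.2 CPM in il26-/- GF. WT GF replicates 2 and 3 were above all other libraries, whereas WT GF replicate 1 lay within the il26-/- GF range. The log2 fold change was -0.54 (standard error 0.23, 95% interval -1.09 to 0.00084, unadjusted p = 0.0503, adjusted p = 0.935, edgeR). Without WT GF replicate 1 it was -0.73 (unadjusted p = 0.00868, adjusted p = 0.601, edgeR), and without WT GF replicate 2 it was -0.42 (unadjusted p = 0.150).

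Genes of other crest-derived cells were in some cases, but not in most of the pigment list, highest in the same libraries as *sox10*. The endothelin receptor gene *ednrba* had 0.691, 1.77 and 2.54 CPM in WT GF and 0.492, 1.07 and 0.754 CPM in il26-/- GF. *ltk*, a receptor of iridophore pigment cells, had 0.493, 2.43 and 1.30 CPM in WT GF and 0.369, 0.561 and 1.07 CPM in il26-/- GF. For *tfec*, a pigment cell transcription factor, the values were 2.47, 4.05 and 4.70 CPM in WT GF and 2.71, 2.58 and 2.58 CPM in il26-/- GF. As with *sox10*, WT GF replicates 2 and 3 were the highest libraries for each of these 3 genes, which were singled out after their values had been seen. The other 5 of the 7 tested pigment cell genes did not share this order. The melanosome protein gene *pmela* had 1.48, 0.810 and 5.05 CPM in WT GF and 0.123, 1.81 and 1.51 CPM in il26-/- GF, and *tyrp1b*, a melanin synthesis gene, was lowest in WT GF replicate 2. Both *dct* and *pnp4a* were highest in il26-/- GF replicate 1, and *csf1ra* was highest in WT GF replicate 1. Of 17 listed pigment cell genes, 14 were in the table and 7 were tested, 6 of them with a negative log2 fold change (median -0.53) and 0 with an unadjusted p-value under 0.05 in edgeR. Of all genes tested, 50.4% had a negative value and 5.32% an unadjusted p-value under 0.05 in edgeR. The 7 genes were measured in the same 6 pools. The summed level of the pigment list was 22.2 to 32.6 CPM in WT GF and 18.3 to 22.1 CPM in il26-/- GF. The melanocyte factor gene *mitfa* and the tyrosinase gene *tyr* reached at most 6 and 11 counts, and *mlpha* had 0. The glial gene *s100b* was also highest in WT GF replicates 2 and 3, at 2.78 and 2.12 CPM. The glial genes *plp1a* and *mbpb* did not share this order. They were highest in WT GF replicate 1 and in il26-/- GF replicate 1, respectively. The parts of pigment cells and of glia in the *sox10* values were not tested.

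Gamma-synuclein is a protein of peripheral neurons, but *sncga* had 0 counts in all 6 libraries, which allows a level of up to 0.0765 CPM in the deepest library as far as counting error goes. Its paralog *sncgb* had 3.8, 4.15 and 3.0 CPM in WT GF and 3.81, 3.75 and 3.39 CPM in il26-/- GF, with a log2 fold change of 0.0062 (unadjusted p = 0.974, edgeR). How the counting treated reads shared by paralogs is not stated, so the split between *sncga* and *sncgb*, and that between the other pairs, is uncertain.

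**Figure D2:**
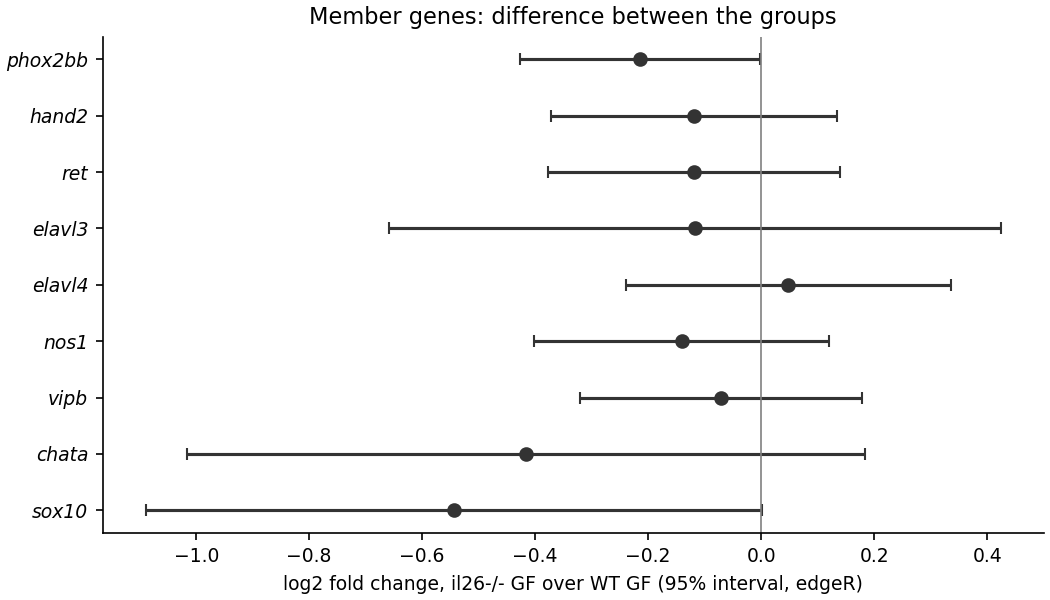
Log2 fold change of il26-/- GF over WT GF for the 9 genes tested, with 95% intervals from edgeR's quasi-likelihood fit and 0 marked by a line. The interval of *phox2bb* ends just under 0, those of the other 8 include 0, and those of *sox10*, *chata* and *elavl3* are the widest.

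The 5 genes with the most reads kept similar proportions to each other, and the 4 others varied more for their size over the 6 libraries. Of all reads on the 9 genes, *vipb* took 26.8 ± 0.819% in WT GF and 27.7 ± 1.1% in il26-/- GF (SD, n = 3 each). *hand2* took 24.9 ± 0.890% and 24.8 ± 0.847%, *ret* 14.9 ± 0.527% and 14.9 ± 0.887%, *nos1* 13.4 ± 0.296% and 13.2 ± 0.824%, and *phox2bb* 10.7 ± 0.354% and 9.97 ± 0.636%. *chata*, at 0.931 ± 0.0674% and 0.788 ± 0.155%, had wider relative spreads in both groups. *sox10*, at 1.61 ± 0.450% and 1.2 ± 0.0770%, had a wider one in WT GF only. In il26-/- GF its relative spread was like that of *phox2bb*. *elavl3* took 2.11 to 2.98% and *elavl4* 4.03 to 5.71% over the 6 libraries. These shares do not depend on how libraries were scaled, and they are not comparable between genes because longer transcripts collect more reads. Over the 6 libraries, the ratio of the highest to the lowest CPM had a median of 1.30 among the 9 genes and of 1.42 among all genes tested.

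The libraries did not separate cleanly by genotype. Over the 9 genes, CPM was above the mean of the 6 libraries for 7, 8 and 4 genes in WT GF replicates 1, 2 and 3. The number was 6, 1 and 1 in il26-/- GF replicates 1, 2 and 3. The shallow il26-/- GF replicate 1 thus stood with WT GF replicates 1 and 2, and WT GF replicate 3 was intermediate. Without il26-/- GF replicate 1, 5 of the 9 genes had groups that did not overlap, beside 16.6% of all genes tested in that fit. Without WT GF replicate 3, 4 of the 9 did, beside 28.9%, and without WT GF replicate 1, 2 of the 9 did, beside 16.7%. The median log2 fold change was -0.22 without il26-/- GF replicate 1 and -0.054 without il26-/- GF replicate 2.

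Further genes came from 6 lists drawn up for enteric neurons, glia and neural crest, 153 genes in all. Of these, 133 were in the table and 89 were tested. Other cells or tissues also express some of them, such as *adcyap1a*, *sox2* and *sox9b*, so these values are not those of the enteric nervous system alone. Of the 89, 6 were lower and 3 higher at an unadjusted p-value under 0.05 in edgeR, or 10.1% beside 5.32% of all genes tested, and 0 passed at an adjusted p-value under 0.05, in this fit and in all 14 alternatives. Their median log2 fold change was -0.088, and 59 of the 89 values were negative, beside 50.4% of all genes tested. All lists were measured in the same 6 pools, so a sign shared within a list is not a set of separate observations. The total of 6 lower genes became 1 without il26-/- GF replicate 2, 2 without WT GF replicate 1, 3 without il26-/- GF replicate 3 and 3 with DESeq2. Of all genes tested, 2.15%, 1.82%, 2.16% and 1.73% were lower at that threshold in those fits, against 2.27%. The total rose to 7 without WT GF replicate 3 and to 9 without il26-/- GF replicate 1. It was 9 with the replicate number as a block and 11 with limma-voom. In these fits, 4.34%, 1.64%, 3.34% and 3.61% of all genes tested were lower. The 3 higher genes became 0 without il26-/- GF replicate 2, and 1 without WT GF replicate 2 or il26-/- GF replicate 1. They became 5 without WT GF replicate 1, and 7 without il26-/- GF replicate 3. In either direction, 4.18%, 4.93%, 3.95%, 4.58% and 6.50% of all genes were called in those fits, against 5.32%. Of all genes, 2.15%, 1.67%, 1.64%, 1.82% and 2.16% were lower in those fits, and only the remaining called genes were higher. With all 6 libraries, 3.06% of all genes were higher.

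Pan-neuronal genes made up the list with the most genes tested, 35 of 44, with a median of -0.13. Of the 35, 28 had a negative value, beside 50.4% of all genes tested. The synapsin gene *syn2b* had a log2 fold change of -0.45 (unadjusted p = 0.0223), the synaptotagmin gene *syt1a* of -0.23 (unadjusted p = 0.0412) and *nsg2*, a neuronal vesicle protein gene, of -0.34 (unadjusted p = 0.0433; edgeR). *syt1a* had 38.3, 36.9 and 33.4 CPM in WT GF and 33.0, 29.0 and 30.5 CPM in il26-/- GF, without overlap. Groups did not overlap for 6 of the 35, all with lower values in il26-/- GF, beside 4.83% of all genes tested in that direction. Among transcription factors, 13 of 17 were tested, with a median of -0.13. *tlx2*, a homeobox gene of the enteric nervous system, had 4.1, 3.60 and 3.55 CPM in WT GF and 3.07, 2.68 and 2.33 CPM in il26-/- GF. Its log2 fold change was -0.49 (unadjusted p = 0.0251, adjusted p = 0.858, edgeR).

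Of the transmitter and peptide genes, 19 of 44 were tested, with a median of -0.088. The PACAP precursor gene *adcyap1a*, which gut endocrine cells also express in zebrafish, had a log2 fold change of -0.31 (unadjusted p = 0.0343, edgeR), and *calb2a*, the calretinin gene, of 1.13 (unadjusted p = 0.0452, edgeR). *calb2a* had 2.62, 0.810 and 1.21 CPM in WT GF and 5.17, 3.19 and 2.14 CPM in il26-/- GF, with overlapping groups. Genes of glia had 9 of 19 members tested, 4 lower and 5 higher, and a median of 0.0051. This median was the value of *mbpb*, with means of 96.6 CPM in WT GF and 97.0 CPM in il26-/- GF. *sox10* had means of only 3.52 and 2.44 CPM. Which cells gave the reads of the glia list was not tested. *s100b* was at 0.839, 2.78 and 2.12 CPM in WT GF and at 0.738, 1.07 and 0.691 CPM in il26-/- GF (log2 fold change -1.12, unadjusted p = 0.0406, edgeR). *sox2*, a factor of glia that epithelia also express, moved the other way, with a log2 fold change of 1.87 (unadjusted p = 0.0259, edgeR). It had 2.86, 0.709 and 0.391 CPM in WT GF and 5.53, 5.94 and 2.51 CPM in il26-/- GF, with overlapping groups. WT GF replicates 2 and 3 held only 14 and 12 counts for it. The glial filament gene *gfap* reached at most 9 counts in a library and was not tested, and the myelin protein gene *mpz* had 0. The neural crest list had 7 of 14 genes tested, a median of -0.063 and *sox9b*, which other tissues also use, at a log2 fold change of 0.36 (unadjusted p = 0.0165, edgeR). The crest genes *foxd3* and *crestin* had a log2 fold change of -0.063 and 3 counts in all, respectively.

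**Figure D3:**
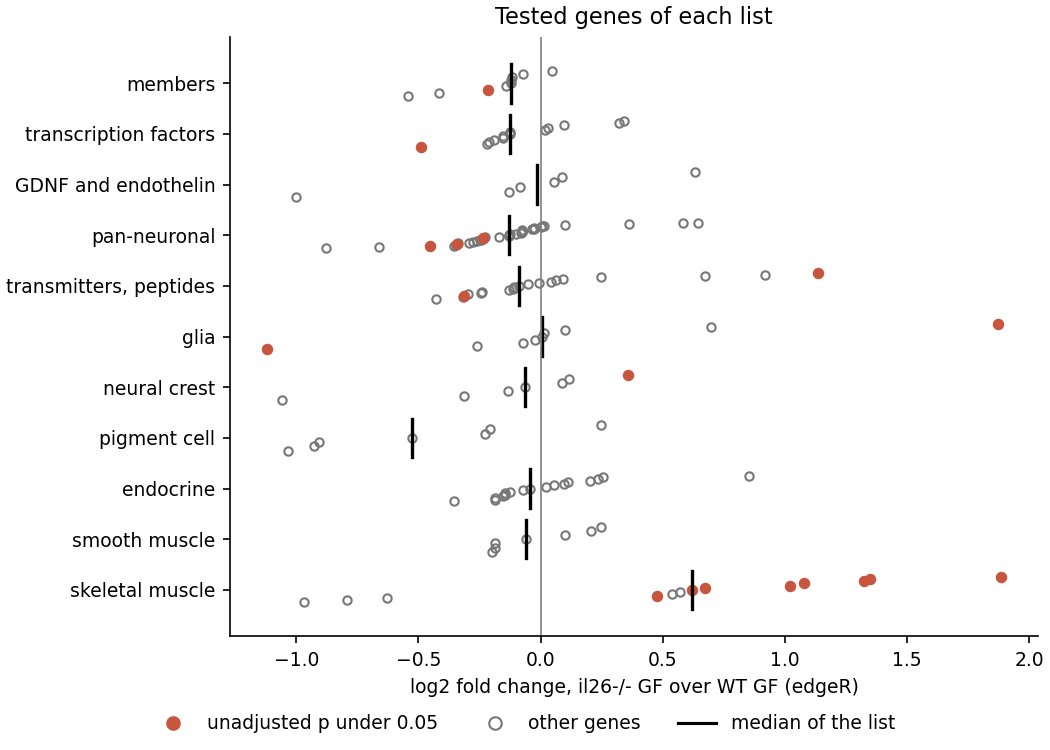
Log2 fold change of il26-/- GF over WT GF for every tested gene of the members, of 6 nervous system lists and of 4 lists of other cell types, with the median of each list as a bar and genes at an unadjusted p-value under 0.05 filled. Medians of the nervous system lists lie between -0.13 and 0.0051, and that of skeletal muscle is 0.62.

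Markers of other tissues were read beside these values. Of 24 genes of brain, spinal cord, eye and sensory ganglia, 20 did not pass the filter and 8 had 0 counts, among them *olig2*, *mnx1*, *neurog1* and *tbr1b*. The summed level of this list was 11.2 to 12.2 CPM in WT GF and 11.6 to 11.7 CPM in il26-/- GF. The skeletal muscle genes *ckma*, *mylpfa* and *pvalb2* also had only 1, 2 and 3 counts in all, although their list had a high summed level. Whether counts at or near 0 come from the tissue or from the counting was not tested. Smooth muscle markers summed to between 3060 and 3875 CPM in WT GF and between 3128 and 3608 CPM in il26-/- GF, and 0 of 7 tested had an unadjusted p-value under 0.05 in edgeR. Markers of gut and pancreatic endocrine cells, which share several secretory genes with neurons, had a median log2 fold change of -0.043 and 0 of 17 tested under that p-value. Their summed level was 181 to 343 CPM in WT GF and 214 to 268 CPM in il26-/- GF. Under the same p-value were 0 of 4 genes of interstitial cells, 0 of 12 of liver and exocrine pancreas, and 1 of 13 of gut epithelium, the apolipoprotein gene *apoa1a* (log2 fold change -0.37, unadjusted p = 0.0194, edgeR). Of all genes tested, 5.32% were under it in either direction, so 0 or 1 in lists this short says little about these tissues. Of skeletal muscle genes, 8 of 13 were higher in il26-/- GF at an unadjusted p-value under 0.05 in edgeR. Among all genes tested, 3.06% were higher at that p-value. At an adjusted p-value under 0.05, 0 of the 13 passed. The list summed to between 1198 and 2097 CPM in WT GF and between 2010 and 3324 CPM in il26-/- GF. The 8 included *myhz2*, a fast myosin gene (log2 fold change 1.89, unadjusted p = 0.00325, edgeR), and *atp2a1*, a calcium pump gene (1.35, unadjusted p = 0.00262, edgeR). Their part in the neuronal values was not tested.

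**Figure D4:**
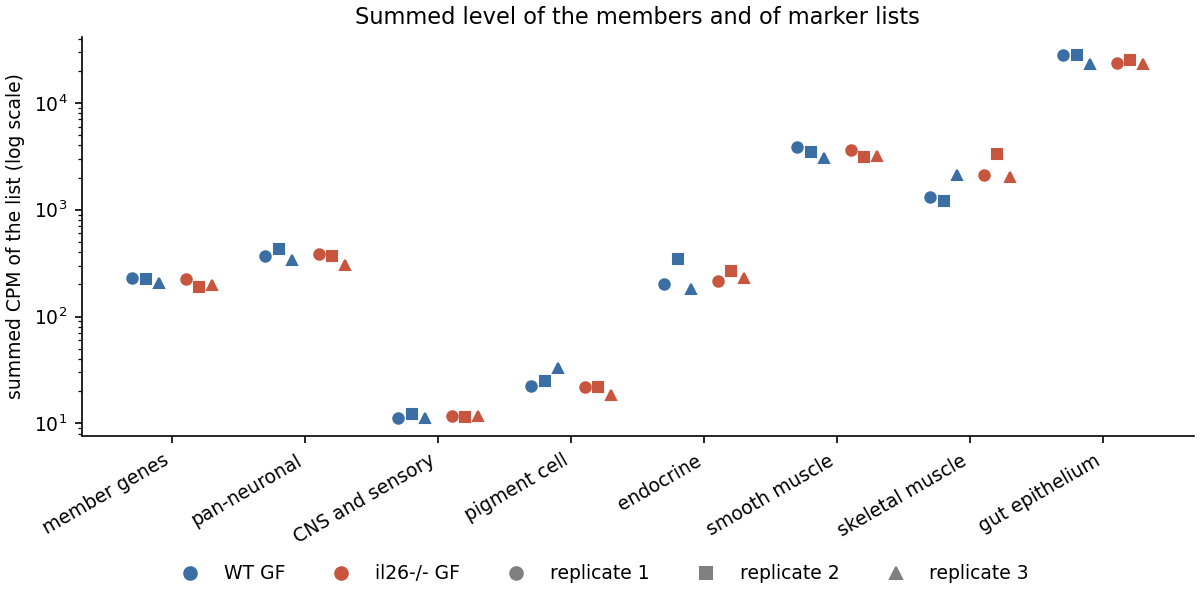
Summed CPM of the 10 genes and of 7 marker lists in each library, on a log axis, with WT GF in blue, il26-/- GF in red and symbols for replicate numbers. The 10 genes sum to 205 to 230 CPM in WT GF and 191 to 223 CPM in il26-/- GF, and skeletal muscle ranges from 1198 to 3324 CPM over all libraries.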

How the data were processed

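RNA-seq was performed by the study on 3 WT GF and 3 il26-/- GF gut pools with a stranded mRNA kit and paired-end reads. Reads were aligned to danRer11 by the authors, whose deposited table holds unnormalized counts, by gene symbol; the aligner, counting tool, annotation and strand setting are not given in the sources used here. Columns were matched to libraries by library name, with 0 left over. Genes were kept by edgeR's filterByExpr (11062 of 15419), scaled by TMM and tested with the quasi-likelihood test of edgeR 4.0.16 (R 4.3.3; limma 3.58.1). P-values were adjusted by Benjamini-Hochberg over every gene in the fit. CPM are reads per 1000000 reads on those genes, TMM-scaled. Standard errors were derived from each fold change and F statistic. The test was tried on simulated data with 200 genes changed, by larger folds than those fitted for the members. This trial therefore does not show how well differences as small as theirs are found. Total counts were 7528412 to 38143258; intervals of single counts cover counting error only. The members and lists were chosen with earlier results of these data known. Named were all members, *il26*, the GDNF and endothelin list, close paralogs and, per list and direction, up to 2 genes with the smallest unadjusted p-value under 0.05; *nsg2*, *slc18a3a*, *ltk*, *tfec*, other pigment genes and genes at or near 0 were added after values were seen. Alternatives were other scalings (DESeq2 size factors, upper quartile, total counts) and filters (1 count in any library, 10 in every library). They also included other tests (DESeq2 1.42.0, limma-voom), the replicate number as a block, and each library left out. Every fit named limma-voom used sample quality weights, so its libraries did not count equally. Gene names matched RefSeq symbols of assembly GRCz12tu, which is not the authors' build, so no coordinates or sequences are given.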

Additional observations from a re-analysis of the deposited data

How the results depend on the processing

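The 0 members at an adjusted p-value under 0.05 stayed 0 in all 14 alternatives, and so did the 0 higher members at an unadjusted p-value under 0.05. The 1 lower member at an unadjusted p-value under 0.05 became 0 with DESeq2 size factors, upper-quartile scaling, total counts only and the DESeq2 Wald test, and 2 (*phox2bb* and *sox10*) with at least 10 counts in every library. Of all genes tested, 2.26%, 1.88%, 0.976%, 1.73% and 2.38% were lower at that threshold in those fits, against 2.27%. With at least 1 count in any library the 1 lower member was *sox10* (unadjusted p = 0.0476), not *phox2bb* (0.0537). With libraries left out it was between 0 and 1, *sox10* without WT GF replicate 1 and *phox2bb* without WT GF replicate 3. Members without overlap became 0 with total counts only, beside 9.40% of all genes tested. They numbered between 1 and 5 with libraries left out, beside 16.6 to 28.9% of all genes. The median log2 fold change of the members was between -0.19 and -0.027 under other scalings, filters, tests and the block, and between -0.22 and -0.054 with libraries left out. With total counts only, the log2 fold change of *vipb* was 0.026 (unadjusted p = 0.839) and the median of all genes was 0.084. With libraries left out, *elavl3* ranged from -0.31 to 0.053 and *elavl4* from -0.027 to 0.11. Among the further nervous system genes, the 6 lower became 1 with total counts only and 3 with the DESeq2 Wald test. They became 9 with the replicate block and 11 with limma-voom. Of all genes tested, 0.976%, 1.73%, 3.34% and 3.61% were lower at that threshold in those 4 fits, against 2.27%. With libraries left out, between 1 and 9 were lower, beside 1.64 to 4.34% of all genes. The 3 higher became 5 with limma-voom and 7 with the replicate block. In either direction, 8.05% and 7.12% of all genes were called in those fits, against 5.32%. Of all genes, 3.61% and 3.34% were lower in those fits, and only the remaining called genes were higher. In the main fit, 3.06% of all genes were higher. With libraries left out, between 0 and 7 were higher, beside 3.95 to 10.2% of all genes called in either direction. That share also holds the 1.64 to 4.34% that were lower. With the replicate number as a block, 15 of all genes passed at an adjusted p-value under 0.05, against 1 without; DESeq2 called 52. Deviations from group means correlated by 0.18, 0.096 and 0.30 for replicates 1, 2 and 3, so the numbers were not taken to pair libraries, although each correlated best with its own number. The block gave *phox2bb* an unadjusted p-value of 0.0437 and *sox10* of 0.0615. Depth limits *chata* and *sox10*, with as few as 17 and 22 counts in il26-/- GF replicate 1.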
